A study of Mus musculus with 6 samples.

Results

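The 9 genes described here encode transcription factors that set or oppose helper T cell fates, namely Gata3, Tbx21, Rora, Maf, Bcl6, Prdm1, Eomes, Nfil3 and Gfi1. They are defined by this list of names. All 9 were listed in the gene-level table that accompanies the series, and all 9 passed the filter on low counts, out of 12925 genes tested. Naive CD4+ T cells of C57BL/6 mice were activated and held under Th9 polarizing conditions for 48 h before poly-A RNA was sequenced. The medium held IL-4, TGF-β and an antibody to IFN-γ. The methods of the study describe isolation of such cells from spleen and lymph nodes. WT samples came from Cul5fl/fl littermates without Cre, and Cul5 cKO samples from Cul5fl/fl mice with CD4-Cre, which deletes in T cells from the CD4-expressing thymocyte stage on. There were 3 samples of each genotype. Mice of 8 to 10 weeks of age were used for such cultures. The labels do not say whether the 3 samples of a genotype were separate mice or separate cultures, so each p-value measures only the spread between these samples, which may be technical.

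In helper T cells, cytokines act through STAT proteins to raise a small set of lineage factors, and these factors then open cytokine genes of their own fate and close those of others. GATA3 is the central factor of Th2 cells and is also needed for Th9 cells, and c-MAF, the product of Maf, acts in Th2, Th17, follicular helper and IL-10-producing cells, where it drives Il4, Il21 and Il10. T-bet, from Tbx21, and its relative EOMES direct type 1 programmes and Ifng. RORα, from Rora, acts in Th17 cells. BCL6 and BLIMP-1, from Prdm1, are repressors that oppose each other in the choice between follicular helper and effector cells. NFIL3 shapes cytokine expression in several helper fates, and GFI1 is a repressor that favours Th2 growth. Cul5 is the scaffold of an E3 ubiquitin ligase that uses SOCS proteins, which restrain cytokine receptor signalling.

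Levels are given as CPM, the reads assigned to a gene scaled to a common library total after TMM normalization, and comparisons between genes use TPM, which also divides by transcript length. The 6 libraries held 23111689 to 23454552 counts, except WT replicate 3 with 3944803, and 3 counts corresponded to 0.128 to 0.133 CPM in the 5 deeper libraries and to 0.759 CPM in WT replicate 3. Such floors cover counting error only. Cul5 itself was at 64.4, 69.3 and 65.0 CPM in WT against 10.6, 14.2 and 13.1 CPM in Cul5 cKO, so that 19.1% of the WT mean was left and the labels and the targeted gene matched in all 6 samples. Defining genes of CD4 T cells were abundant in every sample, with Cd4 between 440.1 and 469.5 CPM. The summed level of 11 CD4 T cell genes was 2433 to 2640 CPM in WT samples and 2098 to 2305 CPM in Cul5 cKO and did not overlap. Cd28 had the largest log2 fold change of the 11 (-1.17), at 45.0 to 56.3 CPM in Cul5 cKO against 88.2 to 125.0 CPM in WT. Its adjusted p was 0.0205 in edgeR's quasi-likelihood test, where 0.418% of all genes were lower with an adjusted p under 0.05. In 13 of 19 alternative fits it stayed under 0.05. The other genes of the list had an adjusted p above 0.05. Cd4 (log2 fold change -0.02), Trac and Cd5 overlapped between the genotypes. The rest were lower in Cul5 cKO without overlap, where 13.5% of all genes tested were so. Genes of other cell types were also detected. The summed level of 5 mast cell and basophil genes was 0.598 to 2.53 CPM in WT against 36.0 CPM in Cul5 cKO replicate 2 and the CD8 genes Cd8a and Cd8b1 summed to 5.76 to 6.53 CPM in WT against 11.6 CPM in Cul5 cKO replicate 3. The 8 B cell genes summed to 85.4 to 119.1 CPM in WT against 41.6 to 134.7 CPM in Cul5 cKO. The 9 myeloid genes summed to 6.53 to 11.4 CPM in WT against 6.94 to 22.0 CPM in Cul5 cKO. The 6 NK and innate lymphoid genes summed to at most 1.88 CPM in any library, with 2 of them at 0 in all 6, and the 5 erythroid genes to at most 2.54 CPM. In bulk RNA, fewer cells of a type and less RNA per cell cannot be told apart.

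The 9 genes lie on 8 chromosomes in GRCm38. Gata3 spans chr2:9857078-9890034, Tbx21 chr11:97098071-97115331, Maf chr8:115682942-115707794, Bcl6 chr16:23965052-23988852, Prdm1 chr10:44437177-44528501, Nfil3 chr13:52967209-52981073 and Gfi1 chr5:107716657-107726036, all on the minus strand. Rora at chr9:68653786-69388246 and Eomes at chr9:118478212-118486132 are on the plus strand. At most 1.31% of the 31-base words in the transcripts of any of the 9 genes also occurred in another gene, and none did for Tbx21, Nfil3 and Gfi1. Antisense or overlapping genes are annotated at 6 of the 9 loci (Gata3, Rora, Maf, Bcl6, Eomes and Gfi1), and the use of strand in the counting is not given in the sources used here. Those overlapping genes that were listed in the files held at most 7.0 counts over the 6 samples together.

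The 250 bases before an annotated start were available from RefSeq on GRCm38.p6 for 8 of the 9 genes, in 10 windows. Both Bcl6 windows are shown because they were the only ones of the 10 with a match to the STAT motif with 3 bases between its arms. The Gata3 window is shown as an example with a half-site of Maf, the gene of the 9 that changed. A Gfi1 window with the same half-site is not shown. The Gata3 window and the second Bcl6 window lie within the gene spans given above. The Gata3 window also overlaps an exon of the antisense gene Gm13256. Capitals mark the matches.

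Bcl6, chr16:23988853-23989102, minus strand: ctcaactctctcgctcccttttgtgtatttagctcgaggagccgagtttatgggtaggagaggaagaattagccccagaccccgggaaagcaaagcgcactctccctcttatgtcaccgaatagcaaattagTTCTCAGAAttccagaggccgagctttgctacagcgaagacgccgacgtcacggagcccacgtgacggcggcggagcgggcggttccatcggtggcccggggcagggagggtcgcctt
Bcl6, chr16:23981284-23981533, minus strand: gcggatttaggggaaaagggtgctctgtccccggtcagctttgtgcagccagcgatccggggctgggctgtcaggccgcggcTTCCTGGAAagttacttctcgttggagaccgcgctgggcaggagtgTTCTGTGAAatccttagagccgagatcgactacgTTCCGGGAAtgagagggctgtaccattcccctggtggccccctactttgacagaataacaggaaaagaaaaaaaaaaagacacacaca
Gata3, chr2:9878601-9878850, minus strand: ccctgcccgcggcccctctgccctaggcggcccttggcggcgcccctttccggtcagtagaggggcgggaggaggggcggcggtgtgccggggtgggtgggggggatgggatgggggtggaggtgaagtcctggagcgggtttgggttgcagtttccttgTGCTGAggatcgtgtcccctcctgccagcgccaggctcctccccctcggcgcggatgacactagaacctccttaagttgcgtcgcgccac

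The motifs were searched on both strands, and N stands for any base. STAT with 3 bases between, TTCNNNGAA, was found in 7.02% of all 32851 windows of this length, and among the 9 genes in both Bcl6 windows, 1 time in the first and 3 times in the second. The first of the 3 matches in the second window, 168 bases before the start, is also a match to the Bcl6 motif TTCCTNGAA, which 1.31% of all windows held. The other 2 lie 122 and 88 bases before the start. The Maf half-site TGCTGA was found 90 bases before the Gata3 start and 142 bases before a Gfi1 start, and in 16.1% of all windows. The ROR motif AGGTCA was found in the Nfil3 window, and in 14.0% of all windows. The STAT motif with 4 bases between its arms, the GATA motif AGATAA, the T-box motif AGGTGTGA, the Nfil3 motif TTANGTAA, the Blimp-1 motif AAGTGAAA and the Gfi1 motif AAATCA were found in 5.85%, 9.99%, 1.12%, 2.06%, 1.36% and 12.4% of all windows and in none of the 10. A match is a description of the letters only.

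Among the 9 genes, Maf was the one that changed. It rose 2.11-fold in Cul5 cKO cells, while the other 8 did not pass the test. Across all genes tested, 1.03% were called at an adjusted p under 0.05 (edgeR's quasi-likelihood test, Benjamini-Hochberg adjustment), 0.611% as higher and 0.418% as lower, against 1 of these 9 as higher and 0 as lower. DESeq2, and limma on the deposited log2 CPM, called Maf and none of the other 8 as well. Of all genes, DESeq2 called 5.94% and limma on the deposited log2 CPM 0.374%. At an unadjusted p under 0.05 the count was 2 of 9, Maf and Gata3, where 21.3% of all genes were counted, 10.9% as higher and 10.4% as lower. The samples of the genotypes lay apart for the same 2 genes, Maf higher and Gata3 lower, where 27.5% of all genes had groups that did not overlap. The median log2 fold change of the 9 was 0.16, and that of all genes tested was -0.01. The 9 genes were chosen with earlier results of these data known, so these shares are no independent comparison.

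**Figure D1:**
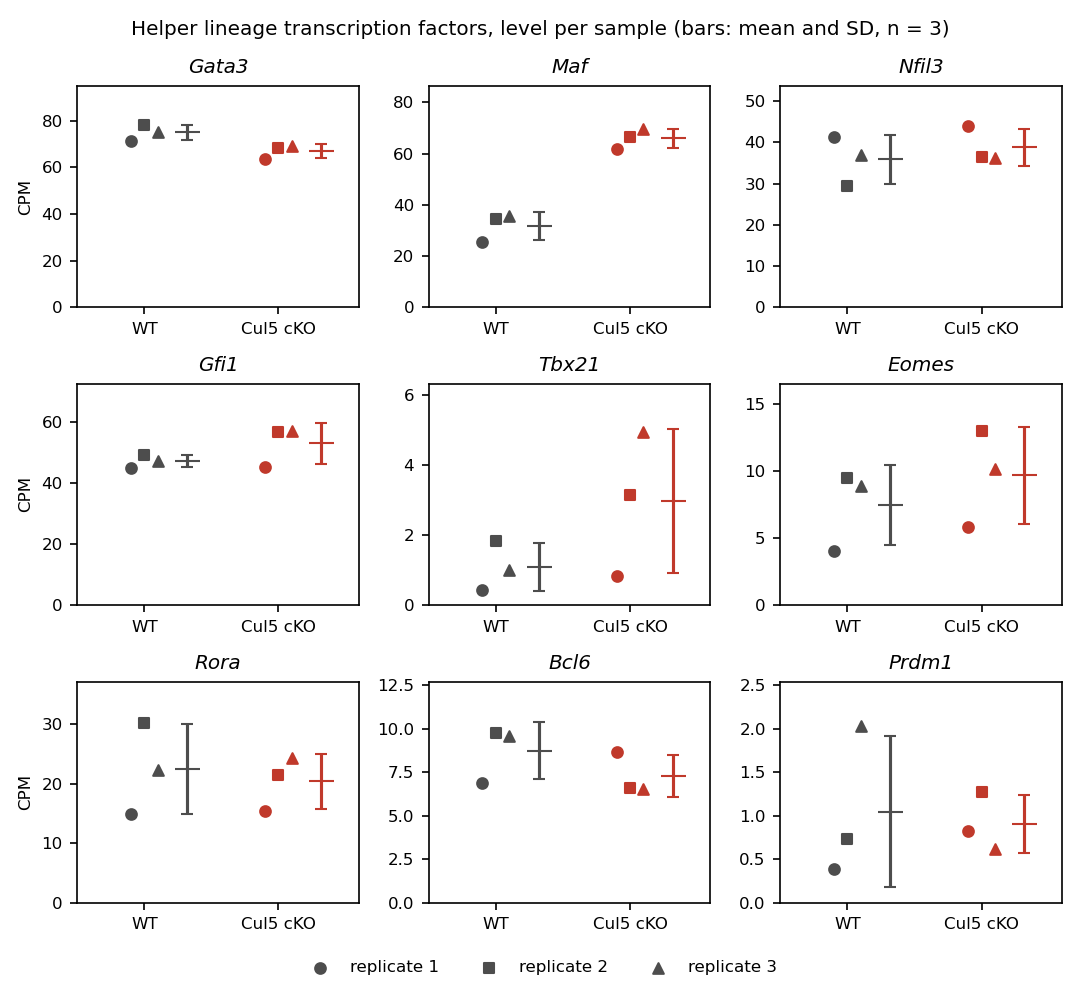
Level of each of the 9 genes in CPM (y axis from 0, scaled per gene) in the 3 WT samples (grey) and 3 Cul5 cKO samples (red), with the mean and SD beside the points and marker shapes for replicate numbers. Only for Maf and Gata3 do the samples of the genotypes not overlap, with Maf at 25.3 to 35.4 CPM in WT against 61.9 to 69.4 CPM in Cul5 cKO.

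Maf was at 25.3, 34.4 and 35.4 CPM in the WT replicates and at 61.9, 66.5 and 69.4 CPM in the Cul5 cKO replicates. The lowest Cul5 cKO sample was 26.5 CPM above the highest WT sample. The means were 31.7 ± 5.57 CPM (SD, n = 3) and 66.0 ± 3.81 CPM (SD, n = 3), giving a log2 fold change (Cul5 cKO over WT) of 1.07 (SE 0.131, 95% interval 0.77 to 1.38) with an adjusted p of 0.0185 in edgeR's quasi-likelihood test. In TPM, Maf went from 8.41 ± 1.28 (SD, n = 3) to 17.2 ± 0.572 (SD, n = 3). The exact permutation test over the 6 samples gave a two-sided p of 0.1, the smallest that 3 samples against 3 allow. With 1 sample left out, the log2 fold change stayed between 0.92 and 1.16 (edgeR's quasi-likelihood test), but the adjusted p was above 0.05 in 4 of the 6 cases. Leaving out WT replicate 2 gave 0.0771, WT replicate 3 gave 0.0816, Cul5 cKO replicate 2 gave 0.0688 and Cul5 cKO replicate 3 gave 0.104 (edgeR).

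The annotation lists 2 transcripts of Maf, and both were higher in Cul5 cKO. Maf-202, of 6360 bases, had a mean of 5.61 ± 1.22 TPM in WT and 11.9 ± 0.973 TPM in Cul5 cKO (SD, n = 3 each), and Maf-201, of 3223 bases, had 2.81 ± 0.157 TPM and 5.39 ± 1.02 TPM (SD, n = 3 each). Maf-202 held 60.3% to 69.6% of the gene's TPM in WT and 63.2% to 74.6% in Cul5 cKO, so the split between the transcripts overlapped between genotypes. Reads of 50 bases divide such transcripts only in part. Maf was at 61.9 CPM in Cul5 cKO replicate 1, where the mast cell and basophil genes (0.738 CPM) and the CD8 genes (4.30 CPM) were low. That is 1 library, and the part of such cells in the Maf values was not tested. The lower sum of CD4 T cell genes moved with Maf across the genotypes, and its part in the result was not tested.

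Gata3 was the most abundant of the 9 in WT by TPM and was slightly lower in every Cul5 cKO sample. It was at 71.4, 78.1 and 75.2 CPM in WT and at 63.7, 68.1 and 69.1 CPM in Cul5 cKO. The groups did not overlap, but the gap between them was 2.26 CPM. The means were 74.9 ± 3.38 CPM and 67.0 ± 2.87 CPM (SD, n = 3 each), giving a log2 fold change (Cul5 cKO over WT) of -0.16 (SE 0.0683, 95% interval -0.32 to -0.0013). The difference did not pass the test, with an adjusted p of 0.232 in edgeR's quasi-likelihood test.

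In TPM the Gata3 means were 40.4 ± 0.687 in WT and 32.9 ± 1.23 in Cul5 cKO (SD, n = 3 each), a wider gap than in CPM. Part of the TPM sat on a transcript of 243 bases, Gata3-205, which had at most 6.80 counts in any sample and held 5.77% to 15.5% of the gene's TPM in WT and 0% to 7.71% in Cul5 cKO. Gata3-201, of 3215 bases, which carried most of the reads, had 33.3 ± 2.77 TPM in WT and 29.8 ± 0.939 TPM in Cul5 cKO (SD, n = 3 each), a log2 ratio of the means of -0.16. In the deposited log2 CPM the mean difference for Gata3 was -0.28, with an adjusted p of 0.201 (limma). Gata3 and Maf, both factors of type 2 cells, thus had fold changes of opposite sign in the same samples, with Gata3 short of the threshold.

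**Figure D2:**
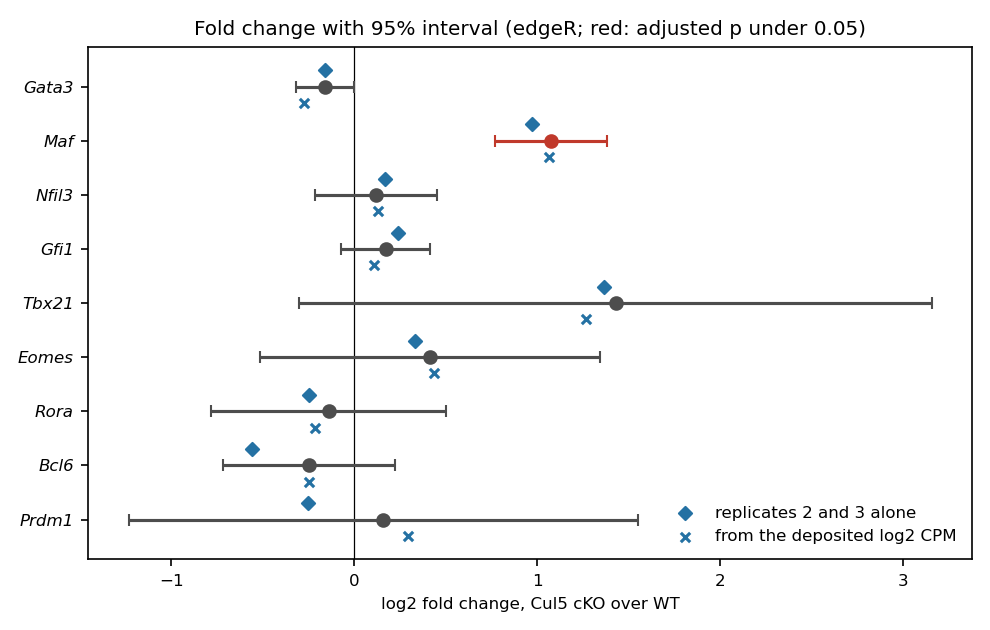
Log2 fold change of Cul5 cKO over WT (x axis) for the 9 genes (y axis), with the edgeR estimate over all 6 samples and its 95% interval as circles and bars, red where the adjusted p was under 0.05. Blue marks show the fold change with replicates 2 and 3 alone and from the deposited log2 CPM, without intervals. In each of these Maf was near 1 (0.97 and 1.06). The interval of Tbx21 over all 6 samples ran from -0.30 to 3.16.

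Tbx21 and Eomes, the T-box factors of type 1 responses, were low, and their samples overlapped. Tbx21 was at 0.427, 1.82 and 1.01 CPM in WT and at 0.825, 3.16 and 4.94 CPM in Cul5 cKO. These values rest on 10, 42 and 4 counts and on 19, 72 and 111 counts. WT replicate 3 was thus close to its floor of 0.759 CPM, and Cul5 cKO replicate 1 lay below WT replicates 2 and 3. The log2 fold change was 1.43 (SE 0.739, 95% interval -0.30 to 3.16), larger than that of Maf but with an adjusted p of 0.317 in edgeR's quasi-likelihood test and an exact permutation p of 0.3. The sample with the most Tbx21, Cul5 cKO replicate 3, was also the one with the most CD8 and B cell RNA, with Cd8a at 6.27 CPM against 0.565 to 1.71 CPM in the other 5, and the part of those cells in the Tbx21 value was not tested.

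Eomes was at 4.01, 9.47 and 8.86 CPM in WT and at 5.82, 13.0 and 10.2 CPM in Cul5 cKO. Replicate 1 was the lowest of its genotype in both, and Cul5 cKO replicate 1 lay below 2 of the 3 WT samples. The log2 fold change was 0.41 (SE 0.397, 95% interval -0.51 to 1.34) with an adjusted p of 0.587 in edgeR's quasi-likelihood test. Leaving out WT replicate 1 gave 0.071 and leaving out WT replicate 2 gave 0.71, while dropping Cul5 cKO replicate 2 gave 0.14. The log2 ratio of Gata3 to Tbx21 in CPM, a within-library balance of the Th2 and Th1 factors, was 7.39, 5.43 and 6.21 in WT and 6.27, 4.43 and 3.81 in Cul5 cKO. Its means were 6.34 ± 0.986 and 4.84 ± 1.28 (SD, n = 3 each), and the difference of -1.51 had an exact permutation p of 0.3 with overlapping groups. With 1 sample left out it ran from -2.22, where Cul5 cKO replicate 1 was dropped, to -0.98, where WT replicate 1 was.

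Rora was at 14.9, 30.2 and 22.3 CPM in WT and at 15.4, 21.4 and 24.3 CPM in Cul5 cKO. The Cul5 cKO samples fell within the WT range, and the log2 fold change was -0.14 (SE 0.274, 95% interval -0.78 to 0.50) with an adjusted p of 0.801 in edgeR's quasi-likelihood test.

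Bcl6 was at 6.87, 9.78 and 9.62 CPM in WT and at 8.69, 6.62 and 6.54 CPM in Cul5 cKO. Replicate 1 broke the order, being the lowest of WT and the highest of Cul5 cKO. The log2 fold change was -0.25 (SE 0.201, 95% interval -0.72 to 0.22) with an adjusted p of 0.515 in edgeR's quasi-likelihood test, and with replicates 2 and 3 alone it was -0.56 with an adjusted p of 0.0771. Prdm1, which encodes the opposing repressor BLIMP-1, was the lowest of the 9. It was at 0.384, 0.735 and 2.02 CPM in WT and at 0.825, 1.27 and 0.622 CPM in Cul5 cKO, on 8 to 29 counts a library. The groups overlapped and Prdm1 did not pass the test, with a fold change on the log2 scale of 0.16 (SE 0.595, 95% interval -1.23 to 1.55) and an adjusted p of 0.912 in edgeR's quasi-likelihood test. The mean CPM went the other way, from 1.05 ± 0.864 in WT to 0.906 ± 0.332 in Cul5 cKO (SD, n = 3 each). The log2 ratio of Prdm1 to Bcl6 in CPM was -3.38 ± 1.004 in WT and -3.06 ± 0.585 in Cul5 cKO (SD, n = 3 each), a difference of 0.32 with an exact permutation p of 0.6.

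Nfil3 and Gfi1 were well expressed, and their intervals were narrow. Nfil3 was at 41.3, 29.5 and 36.9 CPM in WT and at 44.0, 36.3 and 36.1 CPM in Cul5 cKO. The groups overlapped, with a fold change on the log2 scale of 0.12 (SE 0.143, 95% interval -0.22 to 0.45) and an adjusted p of 0.678 in edgeR's quasi-likelihood test. Gfi1 was at 45.0, 49.0 and 47.1 CPM in WT and at 45.2, 56.5 and 57.0 CPM in Cul5 cKO. Cul5 cKO replicates 2 and 3 lay above all WT samples and replicate 1 within them, with a fold change on the log2 scale of 0.17 (SE 0.103, 95% interval -0.07 to 0.41) and an adjusted p of 0.386 in edgeR's quasi-likelihood test. For Gata3, Nfil3 and Gfi1 the 95% intervals did not reach a log2 difference of 0.5 in either direction, whereas those of Tbx21, Eomes, Rora, Bcl6 and Prdm1 did, so the data bound the first 3 more tightly than the other 5.

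Ordered by mean TPM in WT, the genes ran from Gata3 (40.4) over Gfi1 (36.3), Nfil3 (26.8), Maf (8.41), Rora (4.25), Bcl6 (3.57), Eomes (3.26) and Tbx21 (0.655) to Prdm1 (0.302). The sample ranges of Gata3 and Gfi1, of Rora and Bcl6, of Bcl6 and Eomes and of Tbx21 and Prdm1 overlapped, so the order within these pairs was not separated. In Cul5 cKO the order by mean TPM was Gfi1 (38.6), Gata3 (32.9), Nfil3 (28.9), Maf (17.2), Eomes (4.30), Rora (3.42), Bcl6 (2.95), Tbx21 (1.75) and Prdm1 (0.346). Here the ranges of neighbours stood apart for Nfil3 and Maf, for Maf and Eomes, and for Tbx21 and Prdm1. Maf thus kept its place between Nfil3 and the low genes in both genotypes. Against all genes tested, the mean TPM over the 6 samples put Gfi1 at the 68.3rd percentile, Gata3 at the 67.6th, Maf at the 43.1st, Tbx21 at the 13.5th and Prdm1 at the 4.01st.

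Several of these genes differed between replicate 1 and the other replicates in both genotypes. Replicate 1 was the lowest sample of both genotypes for 6 of the 9 genes (Gata3, Tbx21, Rora, Maf, Eomes and Gfi1), where 22.0% of all genes tested had that order, and the highest of both for 1 (Nfil3), where 23.4% did. The distance of replicate 1 from the mean of replicates 2 and 3, in log2 CPM, was -1.47 in WT and -2.13 in Cul5 cKO for Tbx21, -1.17 and -0.97 for Eomes, and -0.79 and -0.57 for Rora. The median size of that distance over all genes was 0.200 in WT and 0.164 in Cul5 cKO. For Gata3 the distances were -0.10 and -0.11 and for Maf -0.46 and -0.14, while Bcl6 (-0.49 and 0.40) turned sign between the genotypes and Prdm1 (-1.46 and -0.11) differed in size. The labels do not say what replicate 1 shares between the genotypes. With replicates 2 and 3 alone, Maf had a log2 fold change of 0.97 at an adjusted p of 0.0068 in edgeR's quasi-likelihood test, and it was the only one of the 9 called, where 8.83% of all genes were. With the difference between replicate 1 and the others as a term in the fit, Maf (1.08, adjusted p of 0.0009, edgeR's quasi-likelihood test) and Tbx21 (1.25, adjusted p of 0.0466) were called, where 13.1% of all genes were.

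**Figure D3:**
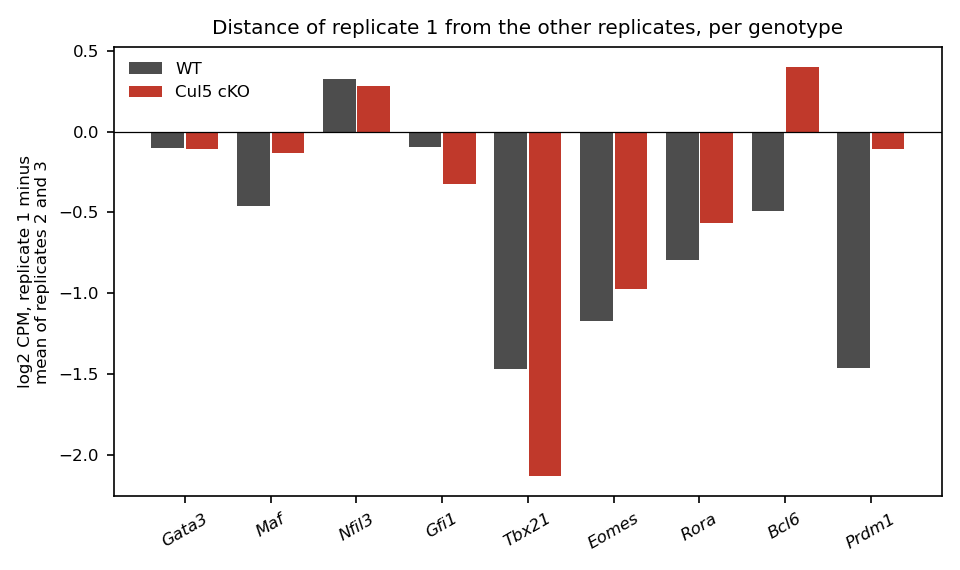
Distance of replicate 1 from the mean of replicates 2 and 3 in log2 CPM (y axis) for each of the 9 genes (x axis), in WT (grey bars) and Cul5 cKO (red bars). Tbx21, Eomes and Rora were lower in replicate 1 in both genotypes, by -1.47 and -2.13 for Tbx21, and Nfil3 was higher in both (0.32 and 0.28).

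Genes placed downstream of these factors, some driven and some repressed, were read in the same test. There, 1.03% of all genes were called and 21.3% had an unadjusted p under 0.05. A list may mix both kinds, so its counts and median do not measure the activity of a factor. The lists were chosen with earlier results of these data known, so the shares beside them are no independent comparison. Of 9 genes placed downstream of GATA3, 8 were tested, 6 were above and 2 below WT, 1 was called, 3 had an unadjusted p under 0.05 (all higher), and the median log2 fold change was 1.08. That median rests on low genes. The tested genes with WT means of 0.556 to 1.54 CPM had log2 fold changes of 1.57 to 1.97. Those with WT means of 21.1 to 288.1 CPM had -0.36 to 0.60. The called gene was Ccr8, a chemokine receptor of type 2 and regulatory cells, at 275.9, 326.0 and 262.4 CPM in WT and at 438.1, 428.5 and 445.8 CPM in Cul5 cKO, with a log2 fold change of 0.60 at an adjusted p of 0.0298 in edgeR's quasi-likelihood test. That call was lost without any one of 5 samples, WT replicate 2 (adjusted p 0.0643, edgeR), WT replicate 3 (0.126), Cul5 cKO replicate 1 (0.0587), replicate 2 (0.0916) or replicate 3 (0.153). Il5 was at 0.427, 2.08 and 0.506 CPM in WT and at 0.955, 5.65 and 6.58 CPM in Cul5 cKO, with an adjusted p of 0.229 in the same test (edgeR). Il1rl1, which encodes the IL-33 receptor, was at 8.76 CPM in Cul5 cKO replicate 2 and at 0.555 to 1.77 CPM in the other 5 samples. That library also held the mast cell and basophil genes Cpa3 (13.8 CPM) and Mcpt8 (9.86 CPM), and the part of such cells in the Il1rl1 value was not tested.

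Of 7 genes placed downstream of c-MAF, 5 were tested, 3 were above and 2 below WT, 1 was called, 3 had an unadjusted p under 0.05 (2 higher and 1 lower), and the median log2 fold change was 0.37. Ccr6, a chemokine receptor of Th17 and regulatory cells, fell from 12.1, 16.3 and 14.2 CPM to 7.04, 4.82 and 6.62 CPM, with a log2 fold change of -1.20 at an adjusted p of 0.0390 in edgeR's quasi-likelihood test. The call was lost without WT replicate 2 (adjusted p 0.168, edgeR), WT replicate 3 (0.165), Cul5 cKO replicate 1 (0.0537), replicate 2 (0.0924) or replicate 3 (0.160). Il10, which encodes a regulatory cytokine, was at 7.34, 1.99 and 4.05 CPM in WT and at 24.0, 17.0 and 10.2 CPM in Cul5 cKO, groups that did not overlap, with an adjusted p of 0.110 (edgeR). Il4 was at 0.506 to 0.606 CPM in WT and at 0.869, 2.41 and 1.82 CPM in Cul5 cKO, with an adjusted p of 0.122 (edgeR). The highest Il4 was in Cul5 cKO replicate 2, the library with the mast cell and basophil genes, whose part in it was not tested, and the lowest, in WT replicate 3, lay below that library's floor of 0.759 CPM. Within each genotype Il10 was highest in replicate 1, where Maf was lowest. DESeq2 called Il10 as higher and Ccr6 as lower, where it called 5.94% of all genes. With limma on the deposited log2 CPM none of the list was called, where 0.374% of all genes were.

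The lists tied to the other factors gave no calls with edgeR's quasi-likelihood test or with limma on the deposited log2 CPM. DESeq2 called 2 of their genes, Ccr7 as lower (of the BLIMP-1 list) and Il10 as higher (of the NFIL3 and GFI1 list). It called 5.94% of all genes. Of 13 genes downstream of T-bet and EOMES, 11 were tested, 5 above and 6 below WT, with a median log2 fold change of -0.05 and 1 gene at an unadjusted p under 0.05, against 21.3% of all genes. That gene was Cxcr3, a chemokine receptor of Th1 cells, with a log2 fold change of -1.19 (adjusted p 0.147, edgeR) and groups that did not overlap. Ccl3, a chemokine, was at 0.0854, 2.42 and 1.77 CPM in WT and at 0, 5.78 and 4.31 CPM in Cul5 cKO. Its log2 fold change was 1.31 (adjusted p 0.626, edgeR). Ifng was at 0.128, 0.822 and 0.253 CPM in WT and at 0.0869, 1.45 and 4.45 CPM in Cul5 cKO (adjusted p 0.347, edgeR). As for Tbx21, the highest Ifng was in Cul5 cKO replicate 3. Of 10 follicular helper genes tied to BCL6, 8 were tested, 4 above and 4 below WT, with a median of 0.04 and none at an unadjusted p under 0.05. Pdcd1, which encodes PD-1, had a log2 fold change of 0.33 (adjusted p 0.711, edgeR), and Il6ra had -0.25 (adjusted p 0.301, edgeR). Of 10 genes that BLIMP-1 represses, all 10 were tested, 2 above and 8 below WT, with a median of -0.24. At an unadjusted p under 0.05 there were 3, all lower, where 21.3% of all genes were counted, 10.4% as lower. Cd27 had -1.19 (adjusted p 0.199, edgeR), and Il2 had 0.97 (adjusted p 0.703, edgeR). Il2 was at 0.171, 4.54 and 3.54 CPM in WT and at 0.0869, 8.59 and 6.76 CPM in Cul5 cKO. Of 7 genes tied to NFIL3 and GFI1, 6 were tested, 5 above and 1 below WT, with a median of 1.28. At an unadjusted p under 0.05 there were 2, against the same 21.3%. That list shares Ifng, Il10, Il13 and Il7r with the others. Its tested genes with WT means of 0.401 to 4.46 CPM had log2 fold changes of 0.85 to 2.15, and the rest had -0.53 and 0.43. For all genes tested, the median was -0.01, and none of these lists was tested as a set. Ccr7, a homing receptor of naive T cells, and Cxcr3 were named here after their values were seen.

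Among 54 further transcription factors of helper T cell fate, 50 were tested, of which 24 were above and 26 below WT, with a median log2 fold change of -0.04. One was called (edgeR's quasi-likelihood test, against 1.03% of all genes), and 20 had an unadjusted p under 0.05, 9 higher and 11 lower, where 21.3% of all genes did. The called gene, Lef1, encodes a factor of naive and memory T cells and of early follicular helper cells. It was at 243.4, 269.7 and 283.4 CPM in WT and at 190.4, 179.2 and 163.5 CPM in Cul5 cKO, with a fold change on the log2 scale of -0.58 (SE 0.0845, adjusted p 0.0306). The call was lost without WT replicate 2 (adjusted p 0.134, edgeR), WT replicate 3 (0.145), Cul5 cKO replicate 2 (0.102) or replicate 3 (0.141). In 19 of the 50 the groups did not overlap, 11 higher and 8 lower, where 14.0% and 13.5% of all genes were so. These factors, too, were chosen with earlier results of these data known.

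The largest differences among those 19, beside Lef1, were in both directions, and none of the 5 passed edgeR's quasi-likelihood test, all at an unadjusted p under 0.05. DESeq2 called 4 of them, Fosl2, Batf3, Etv5 and Stat4, and limma on the deposited log2 CPM called none. Of all genes, they called 5.94% and 0.374%. Fosl2, an AP-1 factor, was at 13.1, 23.8 and 21.3 CPM in WT and at 25.4, 47.9 and 45.8 CPM in Cul5 cKO (log2 fold change 1.05, adjusted p 0.123, edgeR). Batf3, a partner of JUN proteins in AP-1 complexes, went from 8.78 ± 2.26 to 18.4 ± 4.91 CPM (SD, n = 3 each), with a log2 fold change of 1.02 at an adjusted p of 0.0935 (edgeR). Etv5, an ETS factor, had 0.84 (adjusted p 0.0736, edgeR). On the lower side, Stat4, which carries IL-12 signals in Th1 cells, went from 55.1 ± 12.7 to 30.3 ± 5.21 CPM (SD, n = 3 each), with a log2 fold change of -0.86 at an adjusted p of 0.0862 (edgeR), and Irf2 had -0.49 (adjusted p 0.136, edgeR). The most abundant of the 54 by TPM were Irf4, Irf8 and Junb, factors of activated T cells, of which Irf4 had a log2 fold change of 0.35 (adjusted p 0.357, edgeR), Irf8 0.48 (adjusted p 0.570, edgeR) and Junb 0.51 (adjusted p 0.325, edgeR).

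**Figure D4:**
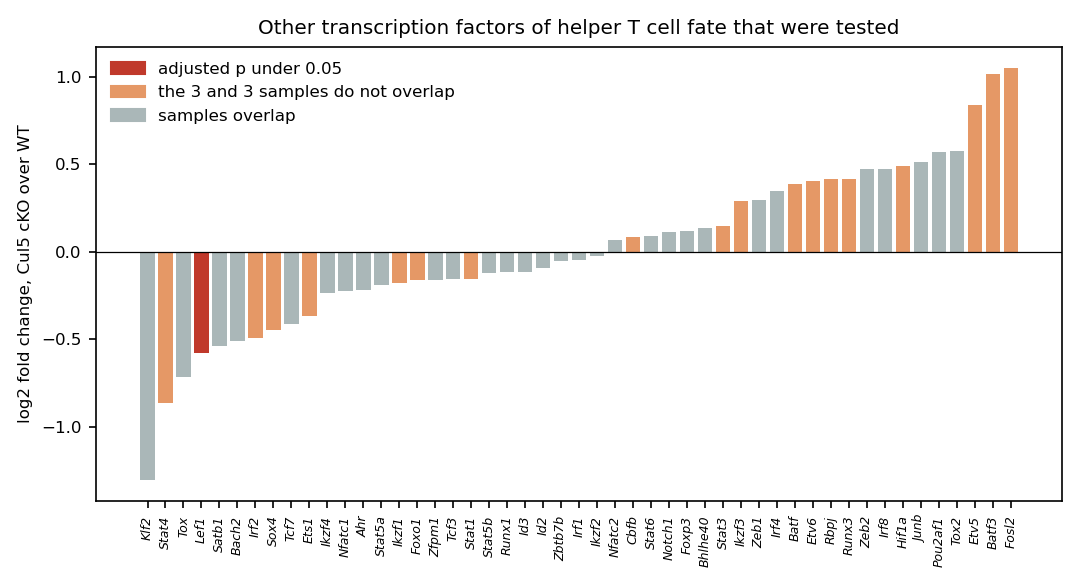
Log2 fold change of Cul5 cKO over WT (y axis) for 49 of the 50 further transcription factors tested (x axis, in order of the value), coloured by whether the adjusted p was under 0.05, the samples of the genotypes did not overlap, or they overlapped. Lef1 (-0.58) is the only one called, and the bars spread to both sides, 23 above and 26 below 0.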

How the data were processed

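Estimated counts and TPM per transcript were deposited by the authors, who mapped 50-base single-end reads to GRCm38 transcripts with kallisto 0.46.2. Their gene-level table holds TMM-normalized log2 CPM, deposited with their own fold changes and p-values, which were not used. Replicates were not pooled.

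Transcripts were summed per gene with GENCODE vM21, which matched 116640 of 119414 (97.7%). Sums were rounded and tested with edgeR 4.0.16 in R 4.3.3 (default expression filter, TMM, quasi-likelihood test, Benjamini-Hochberg over 12925 genes, called at an adjusted p under 0.05), with genotype as the only term. Exact permutation tests were two-sided, over samples. The biological coefficient of variation was 16.1%. The test was checked on simulated data. The replicate numbers were not used as pairs.

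Alternatives used limma 3.58.1 with log2 CPM and log2(TPM + 1) or log2(TPM + 0.1), DESeq2 1.42.0, other scalings and filters, thinned libraries, and samples left out. Motif and summary steps used Python 3.11.15, numpy 2.4.6, pandas 2.3.3 and scipy 1.17.1. Beside the 9 genes, genes were named by rule: those called in each list, those of largest change (for the further factors 6 with groups apart, for each target list 2, all averaging 1 CPM or more), the 3 further factors of highest TPM, and the 2 genes nearest in pattern. Single values of some list genes are not reported here. The gene members and the lists were chosen with earlier results of these data known.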

Additional observations from a re-analysis of the deposited data

How the results depend on the processing

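Of the 167 values obtained for the 9 genes over up to 19 alternatives each, 152 kept their direction and their side of the threshold, 6 lost the call, 1 gained it and 8 turned direction. The 6 were all of Maf, whose log2 fold change stayed between 0.92 and 1.16. Its adjusted p was 0.0570 with limma on log2(TPM + 1) and 0.0565 on log2(TPM + 0.1), and was above 0.05 in 4 of the 6 fits without 1 sample. Over all alternatives it ran from 4.4e-10 (DESeq2) to 0.104 (edgeR without Cul5 cKO replicate 3). The number of the 9 called was thus 0 in both TPM fits, 0 to 1 with 1 sample left out, 2 with replicate 1 as a term (Maf and Tbx21), and 2 with an unadjusted p under 0.05 (Maf and Gata3), and 1 in the other alternatives run. Gata3 stayed between -0.30 and -0.12 and was called in none. Tbx21 ranged from 0.66 to 2.32, and it and Prdm1 were not tested with at least 10 counts in every sample or in thinned libraries. Rora turned to 0.19 without WT replicate 2 and 0.03 without Cul5 cKO replicate 1. Nfil3 turned to -0.020 without WT replicate 2. Prdm1 turned to -0.25 with replicates 2 and 3 alone, -0.071 with voom and sample weights, -0.36 without WT replicate 1, -0.021 without WT replicate 2 and -0.19 without Cul5 cKO replicate 2. The log2 ratio of Prdm1 to Bcl6 differed by -0.066 to 0.89 with 1 sample left out, turning to -0.066 without WT replicate 1 and -0.014 without Cul5 cKO replicate 2. With 1 sample left out, Rora ran from -0.40 to 0.19, Prdm1 from -0.36 to 0.69, Nfil3 from -0.020 to 0.26, Eomes from 0.071 to 0.71 and Bcl6 from -0.41 to -0.14. The causes were not tested.

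Of the further factors, 1 of 50 tested was called, against 10 with DESeq2, 2 with scaling by library size alone, 2 with at least 10 counts in every sample, 3 with no filter beyond 1 count, 0 with counts scaled from TPM, 0 with limma on the deposited log2 CPM or either TPM scale, 14 with a replicate block, 20 with replicate 1 as a term, 18 with replicates 2 and 3 alone, 2 in thinned libraries, 15 with voom and sample weights, 20 with an unadjusted p under 0.05, and 0 to 5 with 1 sample left out. Across these alternatives 48 to 54 of the factors were tested. Over all genes the count of 133 went to 848 with the replicate block, 693 with DESeq2, 1259 with voom, 1688 with replicate 1 as a term, 1153 with replicates 2 and 3 alone, 60 with counts scaled from TPM, 42 on the deposited log2 CPM and 27 or 30 on the TPM scales, and to 2 without WT replicate 2 or 3, 3 without Cul5 cKO replicate 3, 45 without its replicate 2 and 316 without WT replicate 1.

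The replicate numbers could not be taken as pairs. Deviations from the group means correlated at 0.37, 0.21 and 0.02 for numbers 1, 2 and 3, and not every sample correlated best with its own number. With the replicate block, Maf was at 1.08 (adjusted p 0.0025, edgeR) and stayed the 1 gene of the 9 called, where 6.56% of all genes were. WT replicate 3, with 3944803 counts, held 4 counts of Tbx21 and 8 of Prdm1, which limits both.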

Other observations

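Genes whose pattern over the 6 samples lay nearest to each factor were found by the root mean square distance of log2 CPM centred on the gene's mean, over 11615 genes with a mean of at least 1 CPM. For Maf these were Bambi, a membrane pseudoreceptor that dampens TGF-β signals, at a distance of 0.101, and Pdcd1lg2, which encodes the PD-1 ligand PD-L2, at 0.150, against 0.558 for the spread of Maf itself. Bambi had a mean of 2.21 CPM in WT samples and 4.96 CPM in Cul5 cKO (adjusted p 0.0698, edgeR), and Pdcd1lg2 had 28.6 and 51.4 CPM (adjusted p 0.0249, edgeR). For Tbx21 they were Il1a, an alarmin cytokine, at 0.243, and Egr2, a factor induced by T cell receptor signals, at 0.370, against 1.10 for Tbx21 itself. The nearest to Gata3 were Mbtd1 (0.0165) and Tab2 (0.0217), to Rora Clec2d (0.0904) and Hdac7 (0.0911), to Bcl6 Stard10 (0.0596) and Bcl9l (0.0841), to Eomes Slc29a2 (0.134) and Stab1 (0.136), to Nfil3 Tex2 (0.0364) and Zfyve19 (0.0418), and to Gfi1 Larp1b (0.00709) and Ing2 (0.0297). Prdm1, with a mean of 0.977 CPM, was below 1 CPM and was left out. None of the rest was among the nearest of another. These distances describe 6 shared libraries and carry no test. Genes picked this way share the genotype difference of their factor, so the adjusted p-values of Bambi and Pdcd1lg2 add no separate result.

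The 4 annotated transcripts of Gfi1 divided its reads differently from sample to sample. Gfi1-203 held 0.395% to 6.36% of the gene's TPM in WT and 0.732% to 25.1% in Cul5 cKO, while Gfi1-202 held 28.0% to 40.3% and 20.03% to 50.04%.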
